A study of Mus musculus with 9 samples.

Results

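The receptors of interleukin-3 (IL-3), GM-CSF and interleukin-5 (IL-5) are built from 5 chains in the mouse, and the genes of all 5 were measured: Csf2rb, Csf2rb2, Il3ra, Csf2ra and Il5ra. They were taken by symbol from the 19938 genes that had a probe set with a single symbol in the platform annotation. Each chain had 1 probe set, so there was no choice between probe sets: 10425066 for Csf2rb, 10430302 for Csf2rb2, 10412760 for Il3ra, 10468893 for Csf2ra and 10546762 for Il5ra. The cells were BaF3, a mouse haematopoietic line that depends on IL-3, infected with a retrovirus and sorted for green fluorescence. The 3 groups carried BCR-RET, FGFR1OP-RET or BCR-ABL, with 3 arrays each (Affymetrix MouseGene 1.0 ST, 9 arrays in all). No array of cells without a fusion was analysed here, every group shares the infection and the sort, and the labels do not state whether the medium held IL-3. The series title links the RET fusions to chronic myelomonocytic leukaemia. BCR-ABL is the kinase fusion known from chronic myeloid leukaemia.

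In this receptor family an alpha chain binds 1 cytokine and a beta chain carries the signal. The beta chain encoded by Csf2rb is shared by all 3 cytokines. The mouse has a close relative of it, encoded by Csf2rb2, that works with the IL-3 alpha chain alone. The beta chain brings the kinase JAK2, which activates STAT5 and, through adaptor proteins, the ERK and PI3K pathways. Fusion kinases such as BCR-ABL act on the same pathways inside the cell, which is why BaF3 cells are used to test whether a kinase can replace IL-3. The comparisons ask how far the genes of the receptor differ between cells driven by different fusions.

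All values are log2 values made by the authors with RMA, a method that corrects background, gives the arrays the same distribution and summarises the probes of a probe set. Array medians lay between 8.01 and 8.04, and arrays of 1 group correlated at 0.993 to 0.996, and arrays of different groups at 0.989 to 0.996. Differences were tested with limma over all 19938 genes, with Benjamini-Hochberg adjustment and a threshold of 0.05, and "rose" or "fell" is used for genes past it. SD is over the 3 arrays of a group, SE belongs to a log2 difference, and intervals are 95% intervals from the same fit. Whether arrays of 1 group stem from separate infections or cultures is not in the labels, so each p-value is set against a spread that may be technical only. Levels of different probe sets are not compared with each other, because probe sets differ in their response.

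The beta chain genes rose in both kinds of RET fusion cell against BCR-ABL cells, and none of the 3 alpha chain genes passed the threshold. In BCR-RET against BCR-ABL cells 2 of the 5 genes rose and none fell, where 0.371% of all genes tested rose and 0.587% passed in either direction. In FGFR1OP-RET against BCR-ABL cells the same 2 genes rose, where 0.787% of all genes rose and 1.02% passed in either direction. Between the RET fusions none of the 5 genes passed, where 1.33% of all genes did, and 1 of them, Csf2rb2, had an unadjusted p under the threshold. Of all 19938 genes, 2271 had such a p in BCR-RET and 1943 in FGFR1OP-RET, each against BCR-ABL, and 2964 between the RET fusions. Counts of genes in the lists below, past the threshold or at an unadjusted p, stand beside these shares and counts of all genes. The median log2 difference of the 5 genes from BCR-ABL cells was 0.06 in BCR-RET cells, where that of all genes was 0.03, and 0.18 in FGFR1OP-RET cells, where that of all genes was 0.00. For BCR-RET minus FGFR1OP-RET it was 0.02, and 0.02 over all genes.

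Csf2rb, the shared beta chain, had log2 values of 12.77, 12.85 and 12.63 on BCR-RET arrays, 12.63, 12.64 and 12.89 on FGFR1OP-RET arrays, and 11.92, 12.10 and 12.06 on BCR-ABL arrays. Every array of both RET fusions lay above every BCR-ABL array, with no overlap, and the RET fusion arrays were mixed with each other. Of all genes tested, 10.7% had all BCR-RET arrays above all BCR-ABL arrays and 6.94% had all FGFR1OP-RET arrays above them. The means were 12.75 ± 0.11 in BCR-RET cells, 12.72 ± 0.14 in FGFR1OP-RET cells and 12.03 ± 0.10 in BCR-ABL cells (SD, n = 3 arrays each).

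Against BCR-ABL cells, Csf2rb was 1.65-fold higher in BCR-RET cells (interval 1.44 to 1.89; log2 difference 0.72, SE 0.09, adjusted p = 0.00819). It was 1.62-fold higher in FGFR1OP-RET cells (interval 1.41 to 1.85; log2 difference 0.69, SE 0.09, adjusted p = 0.00649). Between BCR-RET and FGFR1OP-RET cells the log2 difference was 0.03, with an interval of -0.17 to 0.22 (adjusted p = 0.912), which spans folds of 0.890 to 1.17. In the order BCR-RET, FGFR1OP-RET, BCR-ABL, the RET fusions did not differ beyond their spread.

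**Figure D1:**
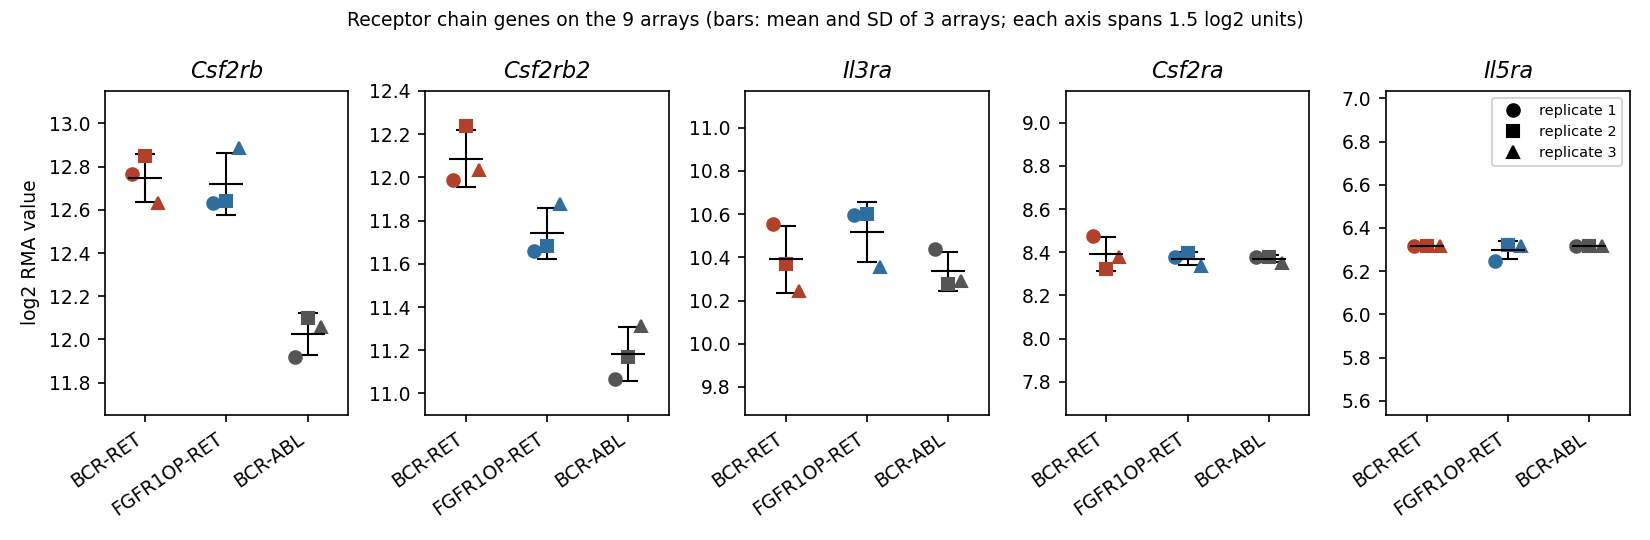
Log2 RMA values of the 5 receptor chain genes on each array, by fusion, with symbols for the replicate number and bars for the mean and SD of 3 arrays. Each vertical axis spans 1.5 log2 units around its own gene. Csf2rb and Csf2rb2 lie above the BCR-ABL arrays on all 6 RET fusion arrays, while Il3ra, Csf2ra and Il5ra overlap between the groups.

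Csf2rb2, the beta chain that serves IL-3 alone, had log2 values of 11.99, 12.24 and 12.04 on BCR-RET arrays, 11.66, 11.68 and 11.88 on FGFR1OP-RET arrays, and 11.07, 11.17 and 11.31 on BCR-ABL arrays. The 3 groups did not overlap anywhere, with BCR-RET highest and BCR-ABL lowest. The means were 12.09 ± 0.13 in BCR-RET cells, 11.74 ± 0.12 in FGFR1OP-RET cells and 11.18 ± 0.12 in BCR-ABL cells (SD, n = 3 arrays each).

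Against BCR-ABL cells, Csf2rb2 was 1.87-fold higher in BCR-RET cells (interval 1.62 to 2.16; log2 difference 0.90, SE 0.09, adjusted p = 0.00278), and it ranked 18 by p among the 19938 genes. It was 1.47-fold higher in FGFR1OP-RET cells (interval 1.28 to 1.70; log2 difference 0.56, SE 0.09, adjusted p = 0.0236), with a rank of 115. This second call hung on single arrays: the adjusted p was 0.0969 without BCR-ABL replicate 1 and 0.131 without BCR-ABL replicate 2. Leaving out FGFR1OP-RET replicate 2 gave 0.0831, and leaving out its replicate 3 gave 0.0617. It also ended when the fit held only the groups compared (0.0629) and when all probe sets were tested (0.0798). The calls of Csf2rb in both comparisons, and that of Csf2rb2 in BCR-RET cells, held without each array in turn, with highest adjusted p values of 0.0434, 0.0350 and 0.0286.

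Between the RET fusions, Csf2rb2 was 1.27-fold higher in BCR-RET than in FGFR1OP-RET cells (interval 1.10 to 1.46; log2 difference 0.35, SE 0.09). All 3 BCR-RET arrays lay above all 3 FGFR1OP-RET arrays, as did those of 8.77% of all genes. The difference did not pass over all genes (adjusted p = 0.128, unadjusted p = 0.00380). It passed with the replicate number added to the limma fit as a block (adjusted p = 0.0284). Same-numbered arrays of these groups did not all deviate together, so the comparison was not taken as paired.

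The beta chain genes were also compared with each other within each array, a comparison chosen after the values were seen. The value of Csf2rb2 minus that of Csf2rb was -0.78, -0.61 and -0.59 on BCR-RET arrays, -0.97, -0.96 and -1.01 on FGFR1OP-RET arrays, and -0.85, -0.93 and -0.75 on BCR-ABL arrays. Only its change between groups can be read, since the probe sets differ. It was 0.32 higher in BCR-RET than in FGFR1OP-RET cells, with no overlap between the arrays (two-sided exact permutation p = 0.1, the smallest that 3 against 3 arrays allow; 0.15 adjusted over 3 comparisons). It was 0.18 higher in BCR-RET than in BCR-ABL cells (exact permutation p = 0.2; 0.2 adjusted) and 0.14 lower in FGFR1OP-RET than in BCR-ABL cells (difference -0.14, exact permutation p = 0.1; 0.15 adjusted). No comparison passed, and none could at this number of arrays. The coding sequences of these genes are closely related, and whether either probe set also binds the other gene's RNA was not tested.

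For the mean of both RET fusion groups against BCR-ABL, Csf2rb was 1.63-fold higher (interval 1.45 to 1.84, adjusted p = 0.00447) and Csf2rb2 1.66-fold higher (interval 1.47 to 1.88, adjusted p = 0.00447). In this comparison 0.481% of all genes rose and 0.742% passed in either direction. The fold for Csf2rb2 averages unequal values of the fusions, 1.87 and 1.47, while those for Csf2rb were 1.65 and 1.62. The comparisons of BCR-RET and of FGFR1OP-RET with BCR-ABL share the same 3 BCR-ABL arrays, and 0.1% of all genes rose in both.

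**Figure D2:**
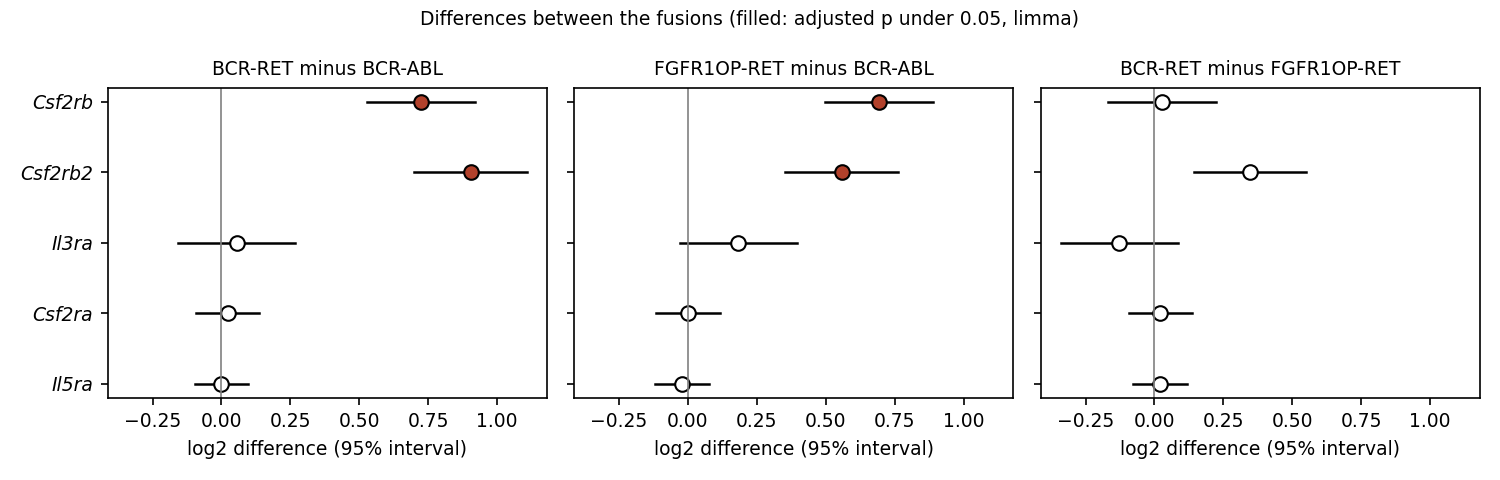
Log2 differences of the 5 receptor chain genes (points) with 95% intervals (lines) for the 3 pairwise comparisons. Filled points passed an adjusted p of 0.05 (limma over all genes, without a replicate block). Csf2rb and Csf2rb2 passed against BCR-ABL in both RET fusions, and no gene passed between the RET fusions in this fit.

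The alpha chain genes showed no change past the threshold. Il3ra, which binds IL-3, had log2 values of 10.56, 10.37 and 10.24 on BCR-RET arrays, 10.60, 10.60 and 10.36 on FGFR1OP-RET arrays, and 10.44, 10.28 and 10.29 on BCR-ABL arrays. The groups overlapped in every comparison. The log2 difference was 0.06 for BCR-RET against BCR-ABL (interval -0.16 to 0.27, adjusted p = 0.832), 0.18 for FGFR1OP-RET against BCR-ABL (interval -0.03 to 0.40, adjusted p = 0.584) and -0.13 for BCR-RET against FGFR1OP-RET (interval -0.34 to 0.08, adjusted p = 0.565). The interval for FGFR1OP-RET against BCR-ABL reaches 1.32-fold.

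Csf2ra, which binds GM-CSF, had log2 values of 8.47, 8.32 and 8.38 on BCR-RET arrays, 8.38, 8.39 and 8.34 on FGFR1OP-RET arrays, and 8.38, 8.38 and 8.35 on BCR-ABL arrays. Of all genes tested, 30.1% had the same value on 3 or more arrays. For Csf2ra the value 8.3787 stood on 4 of the 9 arrays, and the whole range was 0.15. Its log2 difference from BCR-ABL cells was 0.02 in BCR-RET cells (adjusted p = 0.880) and under 0.01 in FGFR1OP-RET cells (0.998), and that of BCR-RET from FGFR1OP-RET cells was 0.02 (0.881). The widest bound of their intervals was 0.14, which is 1.10-fold.

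Il5ra, which binds IL-5 and is known from eosinophils and a subset of B cells, had the single value 6.31809 on 7 of 9 arrays. The others were FGFR1OP-RET replicate 1 at 6.25 and replicate 2 at 6.32. The SD was 0 in BCR-RET and BCR-ABL cells, so the precision of this gene's values cannot be judged from the replicates. No difference passed: the adjusted p was 1 for BCR-RET and 0.922 for FGFR1OP-RET against BCR-ABL cells, and 0.860 between the RET fusions. Its mean over the 9 arrays, 6.31, lay below 6.98, the 25th percentile of all genes. Detection calls were not used here, so whether Csf2ra or Il5ra gave a signal above background was not tested.

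The start region of Csf2rb2 is shown because this gene had the largest log2 difference of the family. That of Il3ra, 1 of the 3 chain genes without a call, is shown beside it. Windows run from 250 bases before to 50 bases after the annotated start (RefSeq, GRCm38.p6), and 4 of the 5 genes had 1, all but Csf2rb. Capitals mark matches to the motifs searched on both strands: TTCNNNGAA for STAT factors, AGATAA and TGATAA for GATA factors, and GAGGAA for ETS factors such as PU.1. The Csf2rb2 window is at chr15:78305672-78305971 on the minus strand, and the Il3ra window at chr14:14346245-14346544 on the plus strand.
Csf2rb2: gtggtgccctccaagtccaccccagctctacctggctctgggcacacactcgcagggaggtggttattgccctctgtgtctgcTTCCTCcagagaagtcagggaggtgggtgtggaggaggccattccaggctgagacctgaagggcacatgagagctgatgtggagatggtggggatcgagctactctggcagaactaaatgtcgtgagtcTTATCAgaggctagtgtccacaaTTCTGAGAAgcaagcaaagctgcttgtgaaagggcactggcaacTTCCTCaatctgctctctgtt
Il3ra: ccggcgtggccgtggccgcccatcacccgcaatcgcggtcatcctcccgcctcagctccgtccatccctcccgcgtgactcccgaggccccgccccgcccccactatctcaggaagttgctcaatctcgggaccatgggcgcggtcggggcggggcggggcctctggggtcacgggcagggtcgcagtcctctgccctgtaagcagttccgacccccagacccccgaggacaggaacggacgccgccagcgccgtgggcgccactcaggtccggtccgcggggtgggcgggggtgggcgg

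The Csf2rb2 window held TTCTGAGAA, a match to the STAT motif, starting 15 bases before the gene's start. It held TTATCA, the reverse complement of TGATAA, 38 bases before the start, and the reverse complement of GAGGAA at 2 places, 167 bases before the start and after it. The Il3ra window held none of the 4 motifs. The windows of the other chain genes without a call did hold matches. That of Csf2ra held GAGGAA at 2 places, and that of Il5ra held AGATAA and GAGGAA once each. Over all 32851 windows of the same length, 8.3% held TTCNNNGAA, 11.2% held AGATAA, 9.05% held TGATAA and 28.3% held GAGGAA. The windows differ in base composition, with 55.0% G and C in Csf2rb2 and 74.3% in Il3ra. A match to these letters is not a measurement of binding.

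Csf2rb2 and Csf2rb lie next to each other on chromosome 15, with a microRNA gene between them, and the genes around the pair were read as well. Of 5 measured neighbours, none passed in BCR-RET against BCR-ABL cells and 1 rose in FGFR1OP-RET against BCR-ABL cells. That gene was Ncf4, which encodes a subunit of the phagocyte oxidase and lies next to Csf2rb2. Ncf4 had log2 values of 10.50, 10.45 and 10.41 on BCR-RET arrays, 10.60, 10.66 and 10.57 on FGFR1OP-RET arrays, and 10.28, 10.27 and 10.23 on BCR-ABL arrays. Its groups did not overlap, with FGFR1OP-RET highest, an order unlike that of Csf2rb2.

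Ncf4 rose by 0.35 in FGFR1OP-RET against BCR-ABL cells (SE 0.05, adjusted p = 0.00954; 0.0561 without BCR-ABL replicate 2), and was 0.20 higher in BCR-RET cells without passing (SE 0.05, adjusted p = 0.164). The other neighbours were Ift27, a gene of ciliary transport, Pvalb, which encodes parvalbumin, Tex33, and Tst, which encodes the sulfurtransferase rhodanese. Their log2 differences against BCR-ABL lay between 0.02 and 0.14 in BCR-RET cells and between -0.04 and 0.09 in FGFR1OP-RET cells, and none passed.

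**Figure D3:**
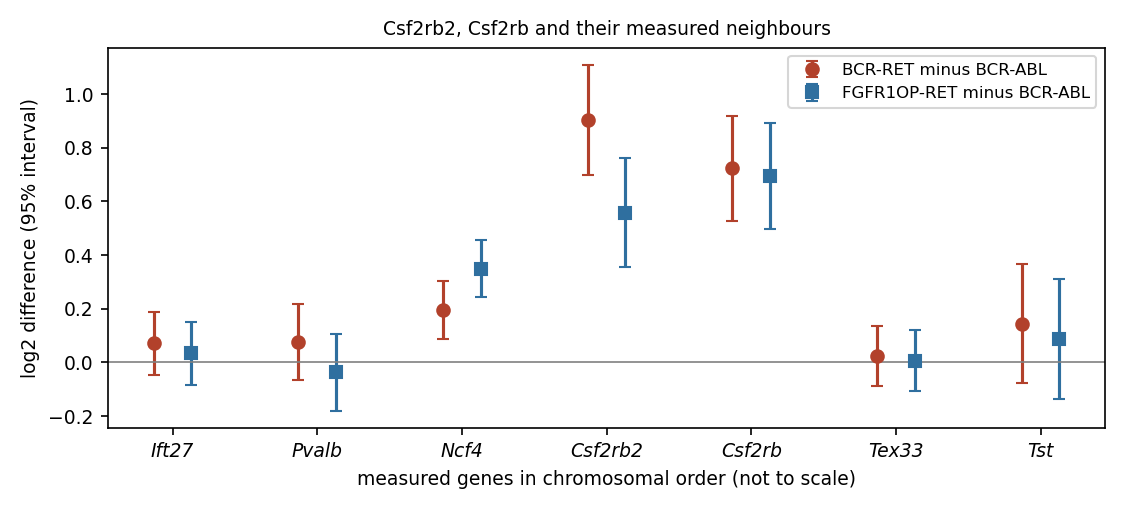
Log2 differences against BCR-ABL (points) with 95% intervals (bars) for Csf2rb2, Csf2rb and the measured genes on either side, in chromosomal order and not to scale. The beta chain genes have differences of 0.56 to 0.90, Ncf4 has 0.20 and 0.35, and the other neighbours are between -0.04 and 0.14.

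The ligands of the receptors did not change past the threshold. Il3 had log2 values of 5.73, 5.73 and 5.77 on BCR-RET arrays, 5.57, 5.57 and 5.71 on FGFR1OP-RET arrays, and 5.79, 5.75 and 5.57 on BCR-ABL arrays. Both RET fusions overlapped BCR-ABL, the BCR-RET arrays lay above the FGFR1OP-RET arrays, and the log2 differences were 0.04 for BCR-RET against BCR-ABL (adjusted p = 0.822) and -0.09 for FGFR1OP-RET against BCR-ABL (0.727). Csf2, which encodes GM-CSF, differed by -0.01 and -0.04 against BCR-ABL in BCR-RET and FGFR1OP-RET cells, and Il5 by 0.07 and 0.06. None of the 3 ligands had an unadjusted p under the threshold in any comparison. All values of the 3 ligands lay below 6.98, the 25th percentile of all genes. Whether their probe sets gave a signal above background was not tested.

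The kinases and transcription factors that act directly below the receptor showed few calls. Jak2, the kinase bound to the beta chain, had means of 10.23 ± 0.02 in BCR-RET cells, 10.40 ± 0.14 in FGFR1OP-RET cells and 10.29 ± 0.12 in BCR-ABL cells (SD, n = 3). Its differences did not pass, nor did those of Stat5a (0.03 and 0.13 against BCR-ABL in BCR-RET and FGFR1OP-RET cells) and Stat5b (-0.10 and -0.03). Among 15 measured kinase, adaptor and phosphatase genes, none passed in BCR-RET against BCR-ABL cells, and 3 had an unadjusted p under the threshold. In FGFR1OP-RET against BCR-ABL cells 1 rose and none fell. It was Gab2, an adaptor that links the beta chain to PI3K, with log2 values of 10.93, 10.94 and 11.06 in FGFR1OP-RET cells and 10.54, 10.62 and 10.66 in BCR-ABL cells. The difference was 0.37 (SE 0.06, adjusted p = 0.0162; 0.0854 without BCR-ABL replicate 2), and the groups did not overlap. The call of Gab2 ended in 3 of the 9 fits with 1 array left out. Cbl, a ubiquitin ligase that acts on activated kinases, was the 1 gene of this list to pass between the RET fusions. It was lower in BCR-RET than in FGFR1OP-RET cells (log2 difference -0.27, SE 0.05, adjusted p = 0.0313), and that call ended whichever of the 9 arrays was left out. None of 4 measured STAT genes passed in any comparison, with 1, 2 and 1 of them at an unadjusted p under the threshold in the 3 pairwise comparisons.

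Of 21 genes known to respond to IL-3 or STAT5, 2 rose when BCR-RET was set against BCR-ABL cells, and none fell. With the replicate number as a block, Bcl2l1, a survival gene, and Dusp6, an ERK phosphatase, fell as well. In FGFR1OP-RET against BCR-ABL cells 1 rose and 1 fell. The list medians were 0.03 and -0.04. Osm, which encodes the cytokine oncostatin M, rose in both: its log2 values were 10.13, 10.36 and 10.30 on BCR-RET arrays, 9.999, 10.01 and 10.03 on FGFR1OP-RET arrays, and 9.47, 9.54 and 9.34 on BCR-ABL arrays. The groups did not overlap and stood in the order seen for Csf2rb2. The differences against BCR-ABL were 0.82 (SE 0.07, adjusted p = 0.00153) in BCR-RET cells and 0.56 (SE 0.07, adjusted p = 0.00730) in FGFR1OP-RET cells.

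Other genes of this list followed other patterns. Il2ra, the alpha chain of the interleukin-2 receptor, had log2 values of 11.93, 12.07 and 11.98 on BCR-RET arrays, 10.93, 10.99 and 11.35 on FGFR1OP-RET arrays, and 11.11, 11.21 and 11.26 on BCR-ABL arrays, so that BCR-RET alone stood apart. It rose by 0.80 in BCR-RET against BCR-ABL cells (adjusted p = 0.0109; 0.0711 without BCR-ABL replicate 2), a call that ended in 4 of the 9 fits with 1 array left out. Pim2, a survival kinase, had log2 values of 12.13, 12.37 and 12.09 on BCR-RET arrays, 11.31, 10.81 and 11.07 on FGFR1OP-RET arrays, and 12.14, 12.02 and 12.02 on BCR-ABL arrays. It fell by 0.99 in FGFR1OP-RET against BCR-ABL cells (SE 0.12, adjusted p = 0.00511), while the difference of BCR-RET from BCR-ABL cells was 0.14 (adjusted p = 0.666). Between the RET fusions 3 genes of the list were higher in BCR-RET cells and none lower: Pim2 (1.13), Il2ra (0.90) and Socs1 (0.37), a feedback inhibitor of JAK kinases whose call ended whichever of the 9 arrays was left out.

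**Figure D4:**
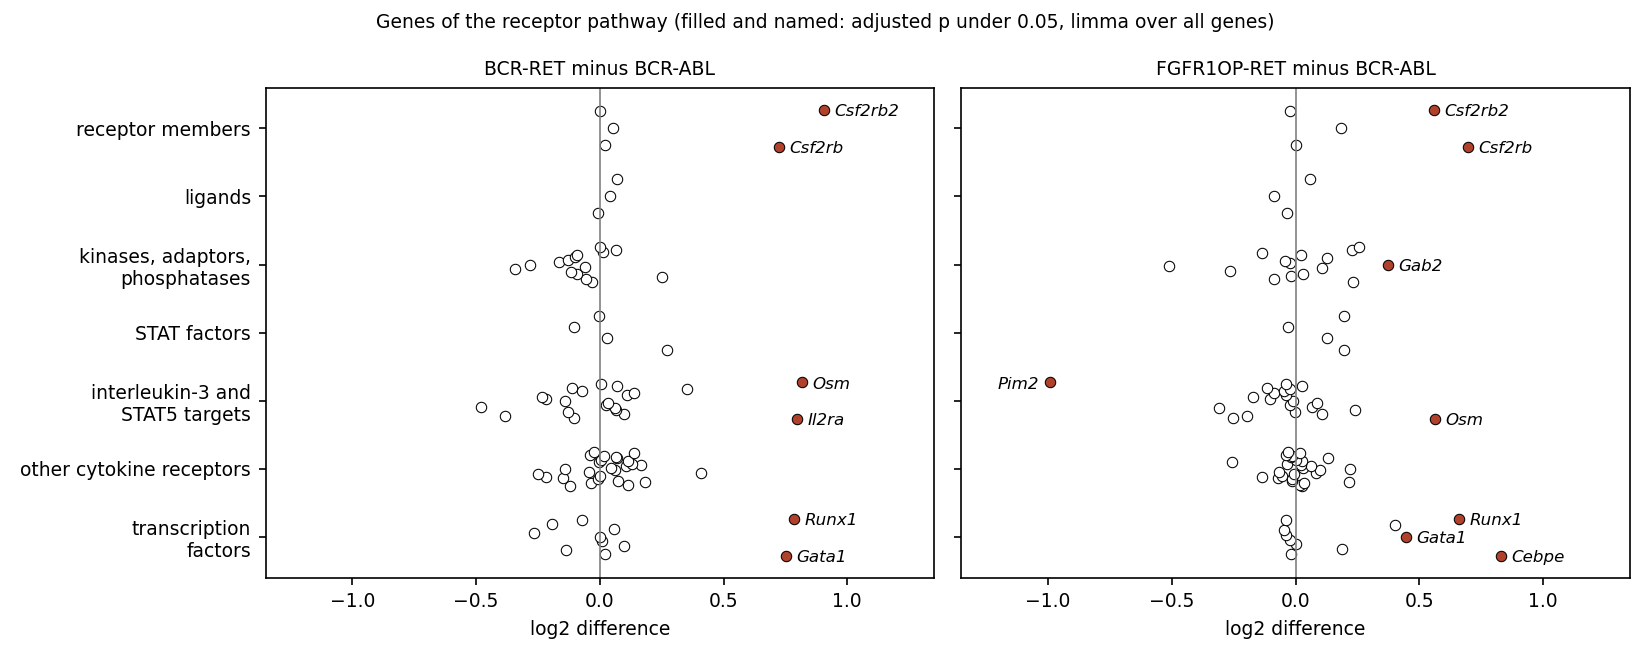
Log2 differences against BCR-ABL of single genes (points) in 7 lists of the receptor pathway, for BCR-RET on the left and FGFR1OP-RET on the right. Filled, named points passed an adjusted p of 0.05 (limma over all genes). Csf2rb, Csf2rb2, Osm, Gata1 and Runx1 passed in both, and no gene of the ligand, STAT and other receptor lists passed. Il2ra, a receptor gene plotted among the IL-3 and STAT5 targets, passed in BCR-RET.

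A list of 27 other cytokine receptor genes did not hold Il2ra, which was filed with the IL-3 and STAT5 targets and rose in BCR-RET cells. Of the 27, none passed in any of the 3 pairwise comparisons, while 5, 3 and 5 had an unadjusted p under the threshold. Of all 19938 genes tested, 2271, 1943 and 2964 did. With the replicate number as a block Il10ra, an interleukin-10 receptor chain, rose in BCR-RET against BCR-ABL cells. The log2 differences of these 27 genes against BCR-ABL ran from -0.25 to 0.41 in BCR-RET cells and from -0.26 to 0.22 in FGFR1OP-RET cells, with medians of 0.02 and 0.00. In BCR-RET cells the difference of Il2ra, 0.80, lay between those of Csf2rb, 0.72, and Csf2rb2, 0.90. In FGFR1OP-RET cells that of Il2ra was -0.10 (adjusted p = 0.810).

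Of 11 transcription factor genes known from myeloid and erythroid expression programmes, 2 rose in BCR-RET against BCR-ABL cells, 3 rose in FGFR1OP-RET against BCR-ABL cells and none fell. Gata1, an erythroid and mast cell factor, had log2 values of 9.86, 10.09 and 9.74 on BCR-RET arrays, 9.61, 9.57 and 9.60 on FGFR1OP-RET arrays, and 9.20, 9.07 and 9.17 on BCR-ABL arrays, with no overlap between groups. It rose by 0.75 in BCR-RET cells (adjusted p = 0.00513) and by 0.45 in FGFR1OP-RET cells (adjusted p = 0.0423; 0.204 without BCR-ABL replicate 2). The second of these calls ended in 7 of the 9 fits with 1 array left out. Runx1, a factor of blood cell formation, rose by 0.78 in BCR-RET cells (adjusted p = 0.0197; 0.123 without BCR-ABL replicate 2) and by 0.66 in FGFR1OP-RET cells (adjusted p = 0.0320; 0.168 without BCR-ABL replicate 2). The calls of Runx1 ended in 4 and 6 of the 9 such fits. Cebpe, a factor of granulocyte maturation, rose by 0.83 in FGFR1OP-RET against BCR-ABL cells (adjusted p = 0.00307), and its difference in BCR-RET against BCR-ABL cells was 0.10 (adjusted p = 0.671). It was the 1 gene of the list to pass between the RET fusions, lower in BCR-RET cells (-0.73, adjusted p = 0.00591). Spi1, which encodes PU.1, did not pass in any comparison.

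The beta chain genes are also expressed by mature myeloid cells, so markers of such cells were read beside them. The mean log2 value of 12 granulocyte genes lay between 10.09 and 10.42 in BCR-RET arrays, between 10.40 and 10.82 in FGFR1OP-RET arrays and between 9.68 and 9.97 in BCR-ABL arrays. In BCR-RET against BCR-ABL cells none of the 12 passed, 6 had an unadjusted p under the threshold and Mpo, Prtn3 and Ctsg rose with the replicate number as a block. Of the 12, 10 had a difference above 0, while Mmp9, a gelatinase gene, had -0.59, with all BCR-RET arrays below all BCR-ABL arrays (unadjusted p = 0.00800, adjusted p = 0.261). Over all 19938 genes tested, 12098 had a difference above 0 in this comparison. In FGFR1OP-RET against BCR-ABL cells 4 rose and none fell, led by the neutrophil granule genes Mpo (1.55), Mmp8 (1.33) and Prtn3 (1.27). The call of Prtn3 held without each array, while those of Mpo (0.156 without BCR-ABL replicate 2) and Mmp8 (0.115 without BCR-ABL replicate 3) ended. They did so in 7 of the 9 fits with 1 array left out for Mpo and in 5 for Mmp8. The 13 monocyte and macrophage genes averaged 8.25 to 8.32 in BCR-RET arrays, 8.43 to 8.70 in FGFR1OP-RET arrays and 8.15 in every BCR-ABL array. Of them, none passed in BCR-RET against BCR-ABL cells, 2 having an unadjusted p under the threshold, and Cd14 (1.06), Mpeg1 (1.01) and Fcgr1 (0.57) rose in FGFR1OP-RET against BCR-ABL cells. Their adjusted p reached 0.0971 without BCR-ABL replicate 2 for Cd14, and 0.0597 and 0.147 without BCR-ABL replicate 3 for Mpeg1 and Fcgr1. The calls of Cd14, Mpeg1 and Fcgr1 ended in 3, 2 and 7 of the 9 such fits. In BCR-RET against BCR-ABL cells 9 of the 13 monocyte and macrophage genes had a difference above 0, where 12098 of all 19938 genes did. Cd14 (-0.15) and Mpeg1 (-0.14) did not. The mean level of both lists was higher in RET fusion arrays than in BCR-ABL arrays and highest in FGFR1OP-RET cells. Between the RET fusions no gene of either list passed as higher in BCR-RET cells. Mmp9 (-1.44), Cd14 (-1.21), Mpeg1 (-1.16) and Prtn3 (-0.65) passed as lower, unlike the order of Csf2rb2. Of these calls, that of Prtn3 ended in 8 of the 9 fits with 1 array left out, and the others held. The part of these markers in the difference of the beta chain genes was not tested, and on arrays of whole cultures a larger number of such cells and more RNA per cell cannot be told apart.

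The 7 eosinophil genes averaged 8.06 to 8.26 in BCR-RET arrays, 7.90 to 8.04 in FGFR1OP-RET arrays and 7.77 to 7.99 in BCR-ABL arrays. None passed against BCR-ABL, with 4 and 1 at an unadjusted p under the threshold in BCR-RET and FGFR1OP-RET cells, and Prg2 and Ear6 rose in BCR-RET cells with the replicate number as a block. Ear6 was higher in BCR-RET than in FGFR1OP-RET cells (0.35, adjusted p = 0.0433), a call that ended whichever of the 9 arrays was left out. Among 5 erythroid genes Klf1 rose in BCR-RET against BCR-ABL cells (0.47, adjusted p = 0.0440; 0.209 without BCR-ABL replicate 2). The call of Klf1 ended in 8 of the 9 fits with 1 array left out. Of 12 mast cell and basophil, 9 T and NK cell and 7 stroma genes, none passed in the 3 pairwise comparisons, with at most 2 genes of a list at an unadjusted p under the threshold. The 13 B-lineage and general blood cell markers averaged 7.88 to 7.92 in BCR-RET arrays, 7.85 to 7.96 in FGFR1OP-RET arrays and 7.86 to 7.88 in BCR-ABL arrays. A mean over both kinds of marker cannot show the identity of the cell line, which was not tested. None of the 13 markers passed against BCR-ABL, with 2 in each comparison at an unadjusted p under the threshold. Ptprc, the pan-leukocyte antigen CD45, had means of 11.48 in BCR-RET cells, 11.84 in FGFR1OP-RET cells and 11.68 in BCR-ABL cells, and was lower in BCR-RET than in FGFR1OP-RET cells (-0.36, adjusted p = 0.0182; 0.0773 without BCR-RET replicate 3). The call of Ptprc ended in 5 of the 9 fits with 1 array left out.

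The genes whose values over the 9 arrays were most like those of each beta chain gene were read by Pearson's r, as a description, since the 9 arrays fall into 3 groups that set much of any such r. Predicted genes and clones were left out of this reading. The 5 most like Csf2rb were Isg20, an interferon-induced exonuclease (r = 0.966), Gbp7, an interferon-induced GTPase (0.958), the inositol phosphatase gene Inpp5j (0.9496), the fatty acyl-CoA reductase gene Far2 (0.949) and the cystatin gene Cst13 (0.946). Those most like Csf2rb2 were F10, which encodes coagulation factor X (0.982), Pik3c2g, a lipid kinase gene (0.979), Kcnab3, a potassium channel subunit gene (0.965), the inflammatory caspase gene Casp4 (0.964) and the hyaluronidase gene Hyal3 (0.960). A high r did not always go with a call. Inpp5j and Cst13 passed in no pairwise comparison, and all values of Cst13 lay below 6.98, the 25th percentile of all genes. Pik3c2g, Kcnab3, Casp4 and Hyal3 passed in BCR-RET but not in FGFR1OP-RET against BCR-ABL cells. Csf2rb and Csf2rb2 had r = 0.926 with each other. Among all genes, Csf2rb2 ranked 15 by r with Csf2rb, and Csf2rb ranked 25 by r with Csf2rb2. The alpha chains were unlike either: Il3ra had r = 0.302 with Csf2rb and 0.101 with Csf2rb2. In the same order Csf2ra had 0.037 and 0.001, and Il5ra had -0.122 and 0.011.

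Isg20 shows the pattern of Csf2rb, with log2 values of 10.39, 10.68 and 10.66 on BCR-RET arrays, 10.36, 10.39 and 10.71 on FGFR1OP-RET arrays, and 9.52, 9.64 and 9.77 on BCR-ABL arrays. F10 shows that of Csf2rb2, with 9.40, 9.48 and 9.37 on BCR-RET arrays, 9.06, 9.08 and 9.17 on FGFR1OP-RET arrays, and 8.62, 8.69 and 8.65 on BCR-ABL arrays. For Isg20 the RET fusions overlapped, and for F10 the 3 groups stood apart in the order BCR-RET, FGFR1OP-RET, BCR-ABL.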

How the data were processed

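The values are log2 probe set values that the authors deposited, made with gene-level RMA in Affymetrix Expression Console, per the labels' descriptions and the submitters' processing notes. The labels name no version, annotation or genome build for that step. Of 35557 probe sets, 21789 had a single symbol in the platform annotation. Each of 19938 genes kept its brightest probe set by mean value. Symbols were matched through Entrez identifiers to RefSeq's GRCm38.p6 gene table, which changed none.

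Groups and replicate numbers came from the sample titles. limma 3.58.1 in R 4.3.3 (lmFit and eBayes, 3 group means, all 9 arrays) was run on all genes. Every adjusted p is from this test unless named otherwise. The fit was also tried on simulated data with noise independent between arrays. Those data do not cover deviations shared by same-numbered arrays. Permutation tests used scipy 1.17.1. With 3 arrays a group, their number limits the precision.

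Same-numbered arrays of BCR-RET and BCR-ABL deviated together (r = 0.617, 0.155 and 0.367 across genes, for numbers 1, 2 and 3), so for that comparison values with the replicate number as a block are given where they changed a call or count. With that block 237 genes rose and 125 fell, in place of 74 and 43.

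The alternatives are listed with their effect in the closing section. Named are all chains, the ligands, Jak2, Stat5a and Stat5b, up to 6 called genes per pathway list and up to 3 per marker list, 3 genes on either side of the Csf2rb pair, and the 5 genes most like each beta chain gene, predicted genes and clones left out. Some list genes were not analysed here. The chains, lists and rules were chosen with earlier results of these data known.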

Additional observations from a re-analysis of the deposited data

How the results depend on the processing

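Of the 20 results on the 5 chains (5 genes in 4 comparisons, the mean of both RET fusions against BCR-ABL included), 384 of 391 values under the alternatives kept their side of the threshold, 6 lost a call, 1 gained one and none of the called values changed sign. Differences near 0 without a call changed sign under some alternatives, such as Il3ra in BCR-RET against BCR-ABL cells (0.06, and -0.03 without BCR-RET replicate 1). The lost and gained calls all concern Csf2rb2. In FGFR1OP-RET against BCR-ABL cells its log2 difference stayed at 0.56 but missed the threshold with only the groups compared in the fit (adjusted p = 0.0629) and with all probe sets tested (0.0798). Leaving out each array in turn moved it between 0.49 and 0.62 (adjusted p = 0.0245 to 0.131). In BCR-RET against FGFR1OP-RET cells its difference of 0.35 passed with the replicate number as a block (adjusted p = 0.0284), and leaving out single arrays moved it between 0.27 and 0.41. Il5ra has no value once the dimmest genes are left out. For the 164 results on other named genes, 2907 of 3219 values kept their side of the threshold, 263 lost a call, 49 gained one and none of the called values changed sign.

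The count of all genes past the threshold moved more. For BCR-RET against BCR-ABL it was 293 with array weights, 56 with only those groups in the fit, 73 with all probe sets and 28 to 114 without single arrays. For FGFR1OP-RET against BCR-ABL it was 94 with only those groups, 121 with all probe sets and 70 to 185 without single arrays. For BCR-RET against FGFR1OP-RET it was 34, 101 and 86 to 194 under the same settings. For the mean of both RET fusions it was 314 with array weights, 83 with all probe sets and 31 to 133 without single arrays. The cause was not tested, except that fits without an array, or with only the groups compared, hold fewer arrays.

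With the replicate number as a block the genes past the threshold numbered 362 for BCR-RET and 576 for FGFR1OP-RET, each set against BCR-ABL, 1135 between the RET fusions and 402 for their mean. Same-numbered arrays of FGFR1OP-RET and BCR-ABL had correlations of 0.382, -0.128 and 0.400, and those of BCR-RET and FGFR1OP-RET 0.498, -0.152 and 0.410. A comparison was taken as paired only where every such correlation was above 0.1. These comparisons missed that limit at number 2, while their arrays of numbers 1 and 3 deviated together. Whether the arrays share more than a number was not tested. In BCR-RET against BCR-ABL cells the block changed no call of a chain. The within-array difference of the beta chain genes was added after seeing the data.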
